A study of Arabidopsis thaliana with 18 samples.

Results

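The transcripts described here encode pathogenesis-related (PR) proteins and other small secreted defense proteins of Arabidopsis thaliana, 9 genes of the 27371 in the expression table. They are PR1 (AT2G14610), PR2 (AT3G57260), PR5 (AT1G75040), the PR1-like gene AT4G33720, HEL (AT3G04720, also called PR4), CHIB (AT3G12500, also called PR3), the defensin genes PDF1.2a (AT5G44420) and PDF1.2b (AT2G26020), and the legume lectin gene AT3G15356. These genes were chosen by family and with their expression in the same libraries already known. Their values, and the numbers of them that passed a threshold, are therefore a description and carry no test of the set. All 9 are protein-coding and lie apart from each other in the genome (TAIR10.1). PR5 lies on chromosome 1 (chr1:28177670-28179022, plus strand), PR1 (chr2:6241640-6242541, minus) and PDF1.2b (chr2:11089123-11089805, plus) on chromosome 2, the PR1-like gene on chromosome 4 (chr4:16182743-16183619, plus) and PDF1.2a on chromosome 5 (chr5:17906968-17907638, minus). Chromosome 3 holds HEL (chr3:1285425-1286760), CHIB (chr3:3962136-3963984), the lectin gene (chr3:5174402-5175523) and PR2 (chr3:21188397-21189967), all on the minus strand.

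All plants were Col-0 wild type and 21 days old, and all of them, the untreated ones included, had spent the last 16 days on 100 mM NaCl, so that no comparison isolates the effect of salt. Shoots were taken from plants given 100 nM ACC (ACC shoots), from plants given 100 nM KMBA (KMBA shoots), from plants colonized by Enterobacter sp. SA187 (SA187 shoots), and from plants given neither a compound nor the bacterium (WT shoots). Roots were taken from ACC plants (ACC roots) and KMBA plants (KMBA roots), and roots without a compound were not analysed here. Each of the 6 groups had 3 biological replicates, 18 libraries in all. ACC is the direct precursor of ethylene in plants, and KMBA (2-keto-4-methylthiobutyric acid) is a bacterial product, also released by SA187, that can be turned into ethylene.

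PR proteins accumulate in plant tissue around sites of infection, and many of them act on the cell walls or membranes of microbes. In Arabidopsis, PR1, PR2 and PR5 are the usual markers of the salicylate pathway. HEL, CHIB and the PDF1.2 defensins are markers of the pathway driven jointly by ethylene and jasmonate, in which transcription factors of the ERF family bind a promoter element called the GCC box. Salicylate and jasmonate signaling often oppose each other in leaves.

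Expression was given as FPKM (fragments per kilobase of transcript, scaled to the size of the library), so levels can be compared between genes, but not how many reads a value rests on. The FPKM of all genes summed to between 357506 and 633792 in a library. The labelled organs fitted their markers: 6 root markers summed to at least 96.1 FPKM in every root library and to at most 6.51 FPKM in every shoot library, and 6 shoot markers to at most 342.8 FPKM in roots and at least 11807 FPKM in shoots. Of the 162 values of the 9 genes, 38 were exactly 0. An exact 0 in such a table can be a failed estimate, since 43 zeros elsewhere in it stood beside high values of the same group. None of these belonged to the 9 genes. The zeros of the 9 genes stood beside low values or other zeros, so this count cannot tell whether they are failed estimates. None of 108 values of 6 reference genes was 0. Genes listed at 0 in a group compared are therefore given by library and without a ratio of means. Their log2 fold changes on the log2(FPKM + 1) scale depend on the 1 added. All WT and SA187 shoot libraries, KMBA shoot replicates 1 and 2 and ACC shoot replicate 1 were sequenced in the same pool, and the ACC roots and the KMBA roots each had a pool of their own. A gene is said to pass where limma on log2(FPKM + 1) gave an adjusted p (Benjamini-Hochberg over all genes tested) under 0.05 and a fold over 2.

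**Figure D1:**
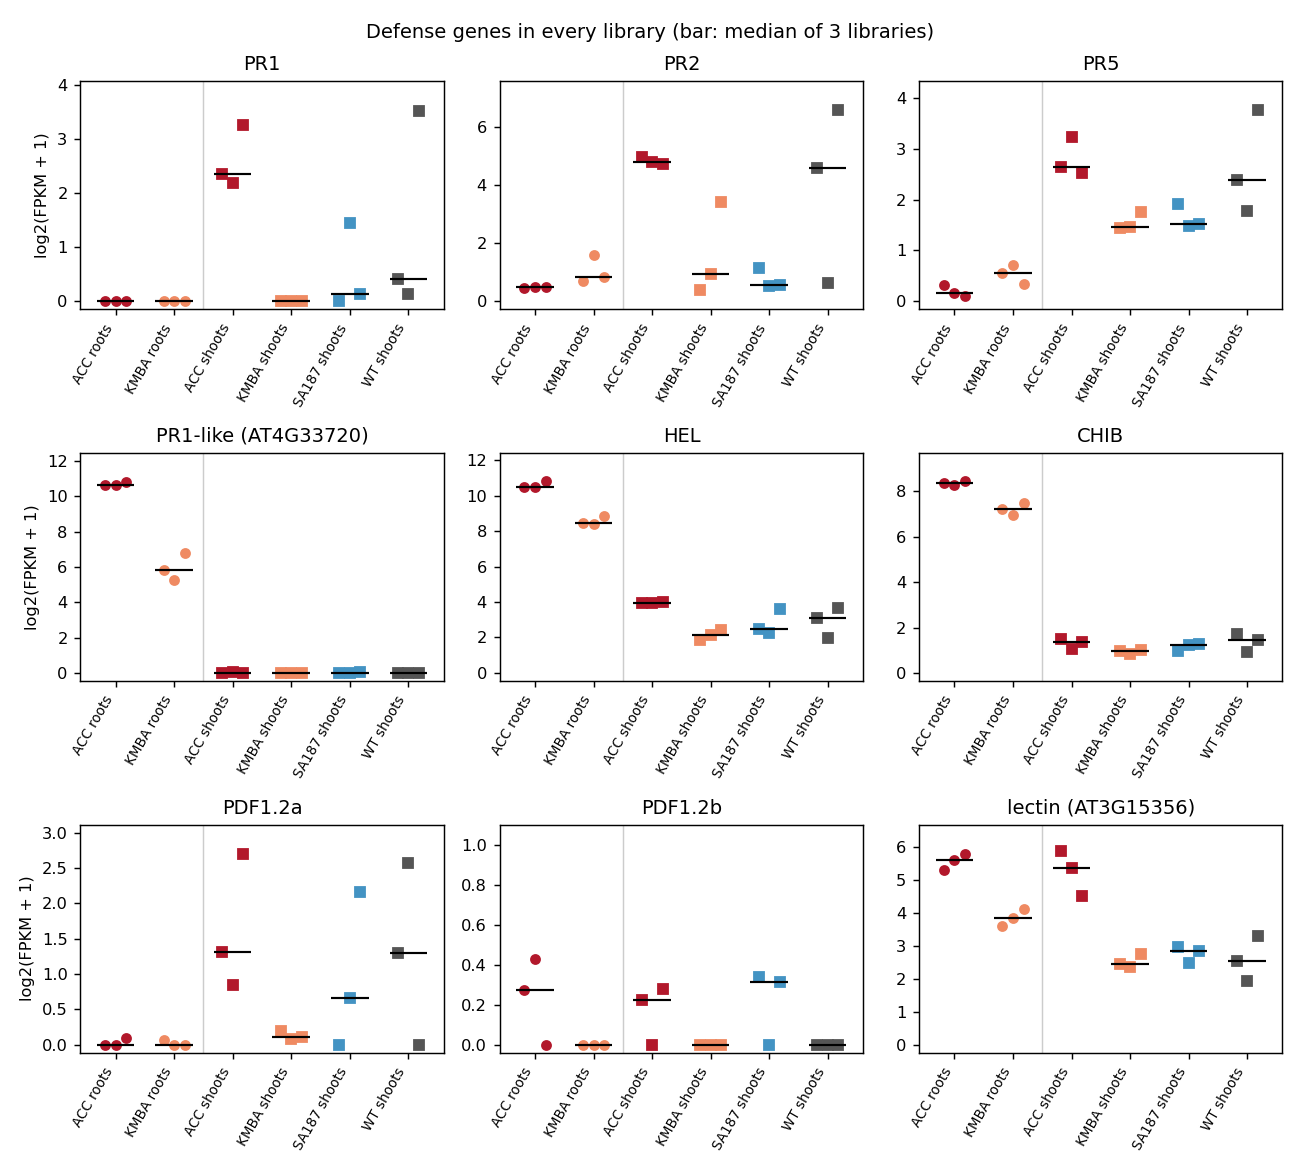
Log2(FPKM + 1) of each of the 9 genes in the 18 libraries, 1 point per library (circles for roots, squares for shoots), with the groups along the horizontal axis and a bar at each group's median. PR1 was at 0 in all root libraries and reached 8.60 FPKM in ACC shoots and 10.5 FPKM in WT shoots. The PR1-like gene, HEL and CHIB reached 1773, 1835 and 346 FPKM in ACC roots.

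The salicylate markers were uneven among the untreated shoots. PR2, a beta-1,3-glucanase that cleaves a polymer of fungal cell walls, was at 29.7, 26.4 and 25.2 FPKM in ACC shoots, 0.303, 0.918 and 9.63 FPKM in KMBA shoots, 1.19, 0.437 and 0.472 FPKM in SA187 shoots and 22.7, 0.524 and 93.9 FPKM in WT shoots (replicates 1, 2 and 3 throughout). The ACC libraries lay close together and above every KMBA and SA187 library, but the WT libraries lay on both sides of them, with replicate 2 among the SA187 values and replicate 3 far above everything else. With 3 libraries in a group such separation is common: among genes with 1 FPKM in 3 libraries of the groups compared, every ACC library was above every KMBA library in 23.0% and above every SA187 library in 26.3%. In whole shoots, fewer cells of a type and less RNA per cell cannot be told apart.

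PR1, a small cysteine-rich protein that binds sterols, was at 4.08, 3.56 and 8.60 FPKM in ACC shoots, at 0 in all 3 KMBA shoots, at 0, 1.70 and 0.0907 FPKM in SA187 shoots and at 0.335, 0.101 and 10.5 FPKM in WT shoots. As for PR2, the ACC libraries were all above the KMBA and SA187 libraries, and WT replicate 3 was above them. PR5, a thaumatin-like protein, was at 5.23, 8.37 and 4.73 FPKM in ACC shoots, 1.70, 1.77 and 2.37 FPKM in KMBA shoots, 2.75, 1.78 and 1.85 FPKM in SA187 shoots and 4.24, 2.43 and 12.5 FPKM in WT shoots. Again the ACC shoots were above the KMBA and SA187 shoots with no overlap, and WT replicate 3 was the highest library. Every KMBA library lay below every WT library for PR1 and for PR5, 2 of the 9 genes, as in 18.1% of all genes. Both separations were slight: PR1 was listed at 0 in KMBA against a lowest WT value of 0.101 FPKM, and the closest PR5 libraries were at 2.37 and 2.43 FPKM.

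The 3 genes moved together from library to library. Over the 12 shoot libraries, PR2 and PR5 had Pearson r = 0.91 and Spearman rho = 0.92 on the log2(FPKM + 1) scale, PR1 and PR5 r = 0.81 and rho = 0.77, and PR1 and PR2 r = 0.77 and rho = 0.67. These points share 4 groups and the high WT replicate 3, so they describe these libraries only. Senescence markers often rise with PR genes in old leaves. They summed to 8.12, 8.98 and 11.9 FPKM in ACC shoots and to 7.55, 8.86 and 11.4 FPKM in KMBA shoots. The sums were 11.6, 7.90 and 18.7 FPKM in SA187 shoots and 11.0, 8.22 and 25.9 FPKM in WT shoots. WT replicate 3 was the highest there too, and replicate 3 was the highest library within each of the 4 groups. The part of senescence in the PR values was not tested.

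HEL, a chitin-binding protein of the hevein type, differed little between the ACC shoot replicates. It was at 14.3, 14.4 and 14.8 FPKM in ACC shoots, 2.63, 3.32 and 4.35 FPKM in KMBA shoots, 4.55, 3.71 and 10.9 FPKM in SA187 shoots and 7.57, 2.91 and 11.6 FPKM in WT shoots. The ACC libraries lay above all 9 other shoot libraries (above all WT libraries in 26.7% of all genes), and the WT and SA187 groups overlapped across most of their range. CHIB, a basic class I chitinase, was low in all shoots, at 1.80, 1.06 and 1.54 FPKM in ACC, 0.962, 0.755 and 1.01 FPKM in KMBA, 0.936, 1.32 and 1.45 FPKM in SA187 and 2.25, 0.872 and 1.75 FPKM in WT. For this gene every pair of shoot groups overlapped apart from ACC and KMBA, whose closest libraries were at 1.06 and 1.01 FPKM.

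The lectin gene gave the clearest separation in shoots. It encodes a protein with the sugar-binding fold of legume seed lectins, and in ACC shoots it was at 58.2, 40.4 and 21.9 FPKM. It was at 4.44, 4.14 and 5.82 FPKM in KMBA shoots, 6.84, 4.58 and 6.24 FPKM in SA187 shoots and 4.87, 2.86 and 8.87 FPKM in WT shoots. The lowest ACC library was above the highest of the other 9, while KMBA, SA187 and WT shoots overlapped each other, with the widest range in WT. The mean of ACC shoots was 40.2 ± 18.2 FPKM, against 5.53 ± 3.06 FPKM in WT shoots (SD, n = 3 each), a ratio of 7.26. ACC replicate 1, the ACC library sequenced in the same pool as all WT and SA187 libraries, was the highest of the 3. HEL and the lectin gene had r = 0.81 and rho = 0.92 over the 12 shoot libraries.

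The PDF1.2 genes carry a GCC box in the 250 bases before their annotated transcript start. These sequences (TAIR10.1) are shown because ERF factors of the ethylene and jasmonate branch of defense bind elements of this kind. GCCGCC is in capitals, and no other motif searched was present in either window. PDF1.2a lies on the minus strand of chromosome 5, and its window is chr5:17907639-17907888. PDF1.2b lies on the plus strand of chromosome 2, with the window chr2:11088873-11089122.
PDF1.2a: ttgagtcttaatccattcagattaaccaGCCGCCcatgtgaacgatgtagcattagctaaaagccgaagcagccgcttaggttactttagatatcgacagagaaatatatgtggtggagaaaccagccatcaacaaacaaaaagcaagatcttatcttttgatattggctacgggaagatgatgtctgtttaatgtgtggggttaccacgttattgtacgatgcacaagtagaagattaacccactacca
PDF1.2b: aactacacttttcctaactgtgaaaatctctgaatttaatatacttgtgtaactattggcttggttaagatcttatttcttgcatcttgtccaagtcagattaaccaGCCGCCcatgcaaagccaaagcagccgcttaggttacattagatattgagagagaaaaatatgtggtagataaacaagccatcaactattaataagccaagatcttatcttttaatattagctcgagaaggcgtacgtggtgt

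The box began 222 bases before the start of PDF1.2a and 143 bases before that of PDF1.2b, in a stretch whose surrounding letters are nearly the same in both genes. GCCGCC, read on both strands, was in 2 of the 9 windows and in 1.9% of the 26702 windows of the same length in the genome. A match is a description of letters and not a measured binding site. TTGAC, the core of the W box bound by WRKY factors, was in the windows of PR1, PR5, the PR1-like gene and the lectin gene, 4 of 9 against 45.0% of all windows. TGACG, the core of the as-1 element, was in those of the PR1-like gene and CHIB, 2 of 9 against 18.6%, and CACGTG, the G box, was in that of PR2, 1 of 9 against 6.6%. The HEL window held none of the 4 motifs.

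PDF1.2a, a plant defensin toxic to fungi, was at 1.48, 0.791 and 5.48 FPKM in ACC shoots, 0.141, 0.0595 and 0.0753 FPKM in KMBA shoots, 0, 0.578 and 3.46 FPKM in SA187 shoots and 1.45, 4.97 and 0 FPKM in WT shoots. Only the KMBA group was uniform, low in all 3 libraries and below all ACC libraries. Within WT the order of libraries was the reverse of that for PR2, with replicate 2 highest and replicate 3 at 0. Over the 12 shoot libraries PDF1.2a had r = 0.16, -0.01 and -0.03 with PR1, PR2 and PR5.

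PDF1.2b was listed at 0 in all KMBA and WT shoots, and it did not exceed 0.264 FPKM in any shoot library or 0.345 FPKM in any root library. It was detected in ACC shoot replicates 1 and 3 (0.168 and 0.211 FPKM), SA187 shoot replicates 1 and 3 (0.264 and 0.243 FPKM) and ACC root replicates 1 and 2 (0.210 and 0.345 FPKM). The transcripts of PDF1.2a and PDF1.2b are identical at 89.8% of 510 aligned bases, and those of PDF1.2a and PDF1.2c at 90.1% of 436, so reads can be shared between these copies and their single values are uncertain. PDF1.2c did not exceed 0.768 FPKM in any shoot library. PDF1.3, a further copy, was at 0.573, 2.00 and 0.762 FPKM in ACC shoots, 0.0570, 0 and 0 FPKM in KMBA shoots, 0.0804, 0.0596 and 0.0437 FPKM in SA187 shoots and 0.256, 0.467 and 0 FPKM in WT shoots. As with PDF1.2a, all its KMBA values were below all its ACC values.

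In the shoot fit 7 of the 9 genes passed the filter on low values, all except the PR1-like gene and PDF1.2b. PR1 met this filter only through the ACC shoots, so its fold changes of ACC over the other groups are a description. Between SA187 and WT shoots, 0 of the 7 passed in either direction, where 0.235% of the 15724 genes tested passed as higher and 1.38% as lower. At an unadjusted p under 0.05 (limma) 2 of 7 were lower, PR2 (log2 fold change -3.18, SE 1.15) and PR5 (-1.01, SE 0.38), beside 26.2% of all genes tested. All 7 overlapped between the SA187 and WT libraries, where every SA187 library lay above every WT library in 9.19% of genes and below in 14.2%, and the large SE of PR2 came with the spread among WT libraries given above. Without WT replicate 2, PR2 (-4.83) and PR5 (-1.44) passed as lower. Without WT replicate 3 they were at -1.85 and -0.45 and did not pass, and PR1 was at 0.24.

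Between KMBA and WT shoots 0 of 7 passed, where 0.655% of genes passed as higher and 2.43% as lower, and at an unadjusted p under 0.05 (limma) 2 of 7 were lower, beside 37.7% of all genes. Without WT replicate 2, the number that passed as lower was 4: PR1 (-1.97), PR2 (-3.99), PR5 (-1.52) and HEL (-1.25). Without WT replicate 3 these genes were at -0.28, -1.01, -0.53 and -0.40 in the same order, and none passed. PR1 was listed at 0 in all KMBA shoots, so its values depend on the 1 added to the FPKM. Between ACC and WT shoots 1 of 7 passed as higher, the lectin gene (log2 fold change 2.66, SE 0.35), where 1.98% of genes passed as higher, and 0 passed as lower, where 2.91% did. HEL was higher by 1.05 (SE 0.39) on this scale and did not pass. Without WT replicate 3, PR1 (2.32) and HEL (1.42) passed beside the lectin gene, but PR1 had met the filter only through the ACC shoots. The lectin gene passed without each of the 6 libraries. The 3 comparisons share the WT libraries.

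The 3 treatments were also compared with each other. Between KMBA and SA187 shoots 0 of 7 genes passed, as for all genes tested (0%), and 0 of 7 had an unadjusted p under 0.05 in limma, beside 4.71% of all genes. Between ACC and SA187 shoots 2 of 7 passed as higher, where 1.04% of genes did, and 0 as lower, where 0.731% did. They were PR2 (log2 fold change 4.07, SE 1.15) and the lectin gene (2.49, SE 0.35). Their mean FPKM in ACC shoots was 38.7 and 6.82 times that in SA187 shoots. The call of PR2 was lost without each of the 6 libraries of these groups (adjusted p between 0.0893 and 0.136) and with the pool as a covariate, whereas that of the lectin gene was kept throughout. Without SA187 replicate 3, the highest SA187 library for HEL, HEL passed (1.60).

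Between ACC and KMBA shoots 2 of 7 passed as higher, where 0.502% of genes did, and 0 as lower, where 0.293% did. These were HEL (log2 fold change 1.82, SE 0.39) and the lectin gene (2.73, SE 0.35), with means in ACC shoots 4.22 and 8.37 times those in KMBA shoots. The call of HEL was lost without each library of the ACC and KMBA shoots, with adjusted p between 0.0807 and 0.12. That of the lectin gene was kept without each library. With the libraries of pool 1 alone, which hold 1 ACC and 2 KMBA libraries and take the lone ACC library to vary like the others, the lectin gene was at 3.49 with an adjusted p of 0.0555, and no gene of the whole table passed.

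**Figure D2:**
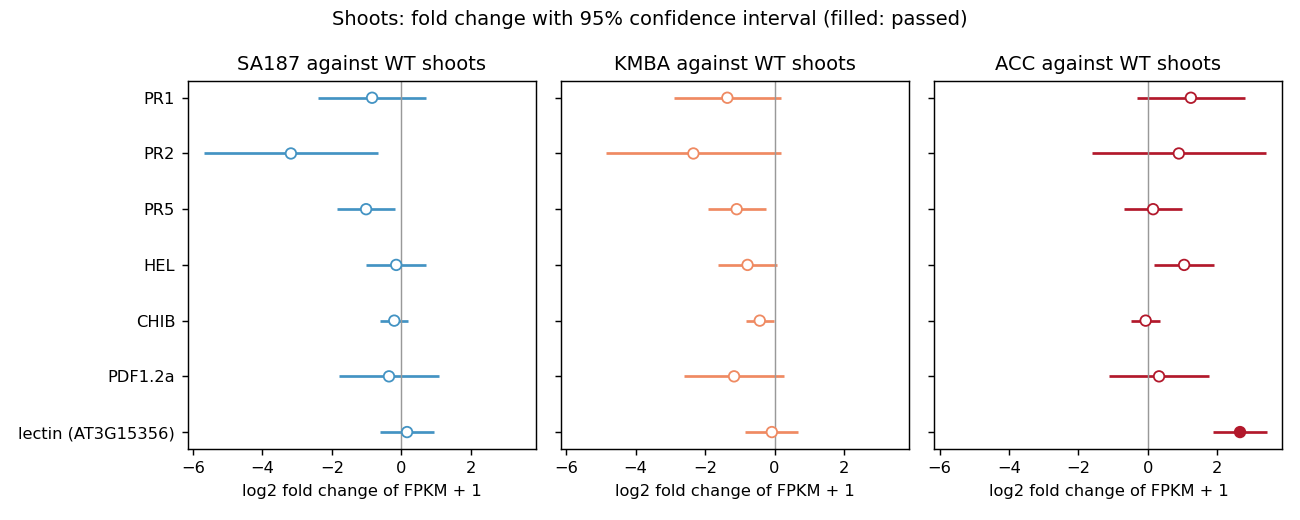
Log2 fold changes of SA187, KMBA and ACC shoots over WT shoots on the log2(FPKM + 1) scale (horizontal axis) for the 7 genes tested, with bars for the 95% confidence interval, where the filled point passed and open points did not. The lectin gene stood at 2.66 in ACC against WT shoots, and the bars of PR2 were the widest in each panel.

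In ACC roots the PR1-like gene had the highest mean of the 9, while in KMBA roots HEL and CHIB were above it. It encodes a secreted protein of the same cysteine-rich family as PR1, and it was at 1589, 1610.1 and 1773 FPKM in ACC roots, against 56.1, 36.8 and 109.9 FPKM in KMBA roots. Every ACC library was far above every KMBA library, and the gene ranked 10 of 27371 by mean FPKM in ACC roots and 744 in KMBA roots. The means were 1657 ± 101.1 FPKM in ACC roots and 67.6 ± 37.9 FPKM in KMBA roots (SD, n = 3 each), a ratio of 24.5. In shoots it was listed at 0 in 10 of 12 libraries and at 0.0468 and 0.0290 FPKM in the others.

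The gene has a single exon, and the 250 bases before it (chr4:16182493-16182742) are shown because it had the highest fold change of ACC over KMBA among all genes tested in roots. Capitals mark CGTCAA, where TTGAC and TGACG overlap on the opposite strand.
PR1-like: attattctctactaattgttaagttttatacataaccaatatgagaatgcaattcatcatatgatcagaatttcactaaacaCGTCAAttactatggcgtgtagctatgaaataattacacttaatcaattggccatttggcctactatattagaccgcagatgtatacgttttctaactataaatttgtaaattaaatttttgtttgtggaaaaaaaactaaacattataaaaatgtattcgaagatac

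Its neighbours of the same family, which lie beside it on the chromosome, did not reach such levels. AT4G33730, downstream, was at 12.1, 16.5 and 16.3 FPKM in ACC roots, against 12.1, 6.77 and 8.25 FPKM in KMBA roots, and did not pass (0.69, adjusted p = 0.0559 in limma). AT4G33710, upstream, was at or near 0 in all 18 libraries. Both were chosen after their values were seen.

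HEL and CHIB were also far higher in roots than in shoots and higher with ACC. HEL was at 1420.2, 1419 and 1835 FPKM in ACC roots, against 354, 341 and 454 FPKM in KMBA roots. CHIB was at 328, 313 and 346 FPKM in ACC roots, against 150.1, 125 and 177 FPKM in KMBA roots. Neither gene had overlapping libraries between the root groups, and every ACC root library was above every KMBA root library in 20.5% of all genes. The ratio of means was 4.07 for HEL and 2.18 for CHIB. HEL ranked 11 of 27371 genes by mean FPKM in ACC roots, next to the PR1-like gene, and 76 in KMBA roots.

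The lectin gene was at 38.8, 48.5 and 54.3 FPKM in ACC roots, against 11.2, 13.4 and 16.5 FPKM in KMBA roots, with a ratio of means of 3.46 and no overlap. The salicylate markers were nearly silent in roots. PR1 was listed at 0 in all 6 root libraries, PR2 was at 0.376, 0.392 and 0.392 FPKM in ACC roots, against 0.605, 1.99 and 0.790 FPKM in KMBA roots, and PR5 was at 0.245, 0.120 and 0.0788 FPKM in ACC roots, against 0.465, 0.629 and 0.262 FPKM in KMBA roots. PR2 and PR5 lay lower in every ACC root library than in any KMBA root library, as did 18.6% of all genes above the filter, but they were too low to be tested in this fit. PDF1.2a did not exceed 0.0652 FPKM in any root library.

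In the root fit the 4 genes that passed the filter, the PR1-like gene, HEL, CHIB and the lectin gene, all passed as higher in ACC roots, where 0.571% of 17169 genes did, and 0 passed as lower, where 0.687% did. Since the genes were chosen with these values known, nothing is read from the share. The log2 fold changes were 4.74 (SE 0.34), 2.02 (SE 0.16), 1.13 (SE 0.13) and 1.72 (SE 0.16) in that order of genes, and by this measure the PR1-like gene ranked 1, HEL 18, the lectin gene 30 and CHIB 88 among all genes tested. All 4 passed without each library and under every other setting. Each root group was sequenced in a pool of its own, so compound and pool cannot be told apart here. Root markers summed to between 534 and 706 FPKM in ACC roots and between 96.1 and 1065 FPKM in KMBA roots. The sum of 96.1 FPKM was that of KMBA root replicate 1, where the marker PYK10 was listed at exactly 0. In KMBA root replicates 2 and 3 PYK10 was at 821 and 965 FPKM, so this 0 may be a failed estimate and not a difference in makeup. The part of tissue makeup in the root values was not tested.

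Some relatives of these genes passed in roots, where 0.571% of all genes tested passed as higher in ACC roots and 0.687% as lower. The lists were chosen with earlier results of these data known, so nothing is read from their shares. Of 9 other PR-1 family genes tested, 1 passed as higher in ACC roots and 0 as lower, with a median of 0.69. It was AT4G25790, at 19.0, 13.1 and 14.5 FPKM in ACC roots, against 6.58, 4.30 and 6.63 FPKM in KMBA roots (1.28, SE 0.18, adjusted p = 0.00555, limma). Of 9 glucanase and chitinase relatives, AT2G43580, a chitinase family gene, passed as higher at 2.97, 3.37 and 3.04 FPKM in ACC roots, against 0.740, 0.665 and 0.872 FPKM in KMBA roots (1.23, SE 0.08), and 0 as lower, with a median of 0.14. This gene met the filter on low values only through the ACC roots, and it passed also with no filter. Of 4 defensin and thionin relatives, PDF2.5 passed as higher at 23.4, 28.1 and 23.3 FPKM in ACC roots, against 8.97, 6.69 and 6.96 FPKM in KMBA roots (1.61, SE 0.12, adjusted p = 0.000705, limma). The other 3 had negative values and the list a median of -0.35. PDF2.3, chosen after its values were seen, was at 151, 209 and 218 FPKM in ACC roots, against 344, 370.0 and 309 FPKM in KMBA roots.

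No thaumatin-like relative passed among 8 tested and no legume lectin relative among 4 (limma). At an unadjusted p under 0.05 in limma there were 4 and 3, beside 32.2% of all genes tested. OSM34, the thaumatin-like osmotin gene chosen here after its values were seen for its abundance, was at 1227, 1279 and 1458 FPKM in ACC roots, against 668, 570 and 772 FPKM in KMBA roots. Its log2 fold change of 0.99 was under the fold threshold. AT3G16530, whose transcript is 88.1% identical to that of the lectin gene over 1097 aligned bases, was at 18.5, 12.2 and 11.8 FPKM in ACC roots, against 16.4, 23.1 and 24.1 FPKM in KMBA roots (-0.56, adjusted p = 0.0976, limma). These groups overlapped, unlike those of the lectin gene itself.

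Regulators of the ethylene and jasmonate branch were among the genes that passed in roots. Of 14 tested, 3 passed as higher and 0 as lower, where 0.571% and 0.687% of all genes tested did, with a median of 0.02. ORA59, an ERF factor that activates PDF1.2 through the GCC box, was at 35.6, 40.0 and 43.5 FPKM in ACC roots, against 10.4, 10.5 and 14.5 FPKM in KMBA roots (1.68, SE 0.14, adjusted p = 0.000868, limma). ERF1, an ERF factor induced by EIN3, was at 4.20, 5.10 and 4.59 FPKM in ACC roots, against 0.799, 0.509 and 1.398 FPKM in KMBA roots (1.59, SE 0.16). ERF14 was at 4.04, 5.55 and 4.59 FPKM in ACC roots, against 0.406, 1.04 and 0.861 FPKM in KMBA roots (1.70, SE 0.16). ERF1 and ERF14 met the filter on low values only through the ACC roots, and both passed also with no filter.

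Of 18 salicylate regulators tested in roots 0 passed in either direction (limma), with a median of -0.10. At an unadjusted p under 0.05 in limma 4 were lower and 0 higher, beside 32.2% of all genes tested in either direction. Of the markers of the other jasmonate branch, driven by MYC2 and used mainly against insects, 2 were tested and VSP1 passed as lower (-1.30, adjusted p = 0.00184, limma).

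**Figure D3:**
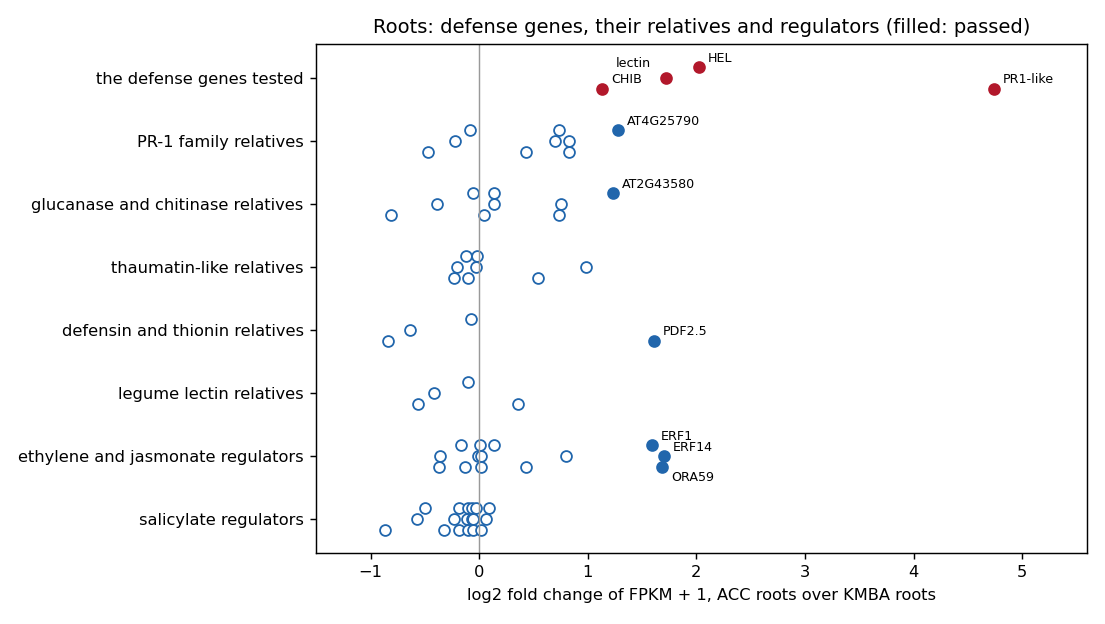
Log2 fold changes of ACC over KMBA roots on the log2(FPKM + 1) scale for the 4 defense genes tested and for the lists of their relatives and regulators, 1 point per gene, filled where the gene passed. The PR1-like gene stood alone at 4.74, HEL was at 2.02, and ERF14, ORA59 and PDF2.5 at 1.70, 1.68 and 1.61 were the highest of the relatives and regulators.

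In shoots the same lists changed differently between comparisons, and only some of their results are given here. ORA59 was at 3.03, 3.98 and 2.07 FPKM in ACC shoots, 0.720, 0.481 and 0.689 FPKM in KMBA shoots, 1.23, 0.378 and 0.797 FPKM in SA187 shoots and 0.367, 0.364 and 0.558 FPKM in WT shoots. The ACC libraries were above all others, and ORA59 passed against WT (1.47, SE 0.19, adjusted p = 0.000436), SA187 (1.16, adjusted p = 0.00473) and KMBA shoots (1.28, adjusted p = 0.00691, limma). It met the filter on low values only through the ACC shoots, and it passed against these 3 groups also with no filter. Against SA187 it went under the fold threshold without SA187 replicate 2 (0.98) or ACC replicate 2 (0.99). Of 12 ethylene and jasmonate regulators tested in ACC against WT shoots, ORA59 alone passed as higher and ERF6 alone as lower. Of all genes tested, 1.98% passed as higher and 2.91% as lower in this comparison. In KMBA against WT shoots 0 of the 12 passed as higher and 2 as lower, JAZ1 (-1.54) and ERF2 (-1.23). Of all genes, 0.655% and 2.43% did. In SA187 against WT shoots 0 passed in either direction, where 0.235% and 1.38% of all genes did. Of 6 thaumatin-like relatives AT4G36010 alone passed, as lower against WT in SA187 (-1.39), KMBA (-1.63) and ACC shoots (-1.25). Nothing is read from these shares.

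AT3G16530, the relative of the lectin gene, was at 50.0, 33.8 and 25.2 FPKM in ACC shoots, 6.62, 6.53 and 9.11 FPKM in KMBA shoots, 19.6, 7.67 and 13.7 FPKM in SA187 shoots and 9.08, 6.79 and 15.1 FPKM in WT shoots. Like the lectin gene it was highest in every ACC shoot, and it passed against WT shoots (1.73, SE 0.34, adjusted p = 0.00332, limma). It was the only 1 of 6 legume lectin relatives to pass as higher there. The other 5 had negative values, and the list had a median of -0.86. Of these AT1G53080 passed as lower (-1.14), but it met the filter on low values only through the WT shoots. Of all genes tested, 1.98% passed as higher and 2.91% as lower, and nothing is read from the shares of this list. Reads shared between these similar copies could move part of one gene's signal to the other.

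Among 16 salicylate regulators tested in shoots, 4 passed as lower against WT in ACC shoots, 5 in KMBA shoots and 1 in SA187 shoots. Of all genes tested, 2.91%, 2.43% and 1.38% passed as lower in these comparisons. The list was chosen with earlier results known, so nothing is read from these shares. Its medians were -0.41, -0.73 and -0.45, beside 0.06, 0.00 and -0.02 for all genes tested. The genes that passed as lower were WRKY18, NIMIN2, WRKY54 and WRKY70 in ACC shoots, these and WRKY53 in KMBA shoots, and NIMIN2 in SA187 shoots. Against WT, GRX480 passed as higher in ACC shoots, where 1.98% of all genes did. In KMBA and SA187 shoots 0 of the 16 passed as higher, where 0.655% and 0.235% of all genes did. At an unadjusted p under 0.05 in limma 1 was higher in each of KMBA and SA187 shoots, beside 37.7% and 26.2% of all genes in either direction. WRKY18, a factor gene of the salicylate response, was at 22.4, 34.9 and 34.8 FPKM in ACC shoots, against 159.7, 100.3 and 147.1 FPKM in WT shoots (-2.11, SE 0.22, adjusted p = 0.000159, limma). This call was kept without each library, but without WT replicate 3 those of NIMIN2 (-0.97) and WRKY54 (-0.97) were lost, and in ACC shoots GRX480 lost its call without WT replicate 1 (1.29), ACC replicate 1 (1.31) or ACC replicate 3 (1.395). Of the KMBA calls, NIMIN2 and WRKY53 were kept without each of 6 libraries, WRKY70 without 4, and WRKY54 and WRKY18 without 3. The SA187 call of NIMIN2 was kept without 1 of the 6 (adjusted p between 0.0109 and 0.146). The ACC libraries of WRKY18 lay below all its WT libraries, as in 17.1% of all genes, whereas PR1, PR2 and PR5 in the same ACC shoots lay inside the range of the WT shoots.

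Set against shoots of the same treatment, roots held the PR1-like gene, HEL and CHIB at much higher levels. The mean of HEL in roots was 107.4 times that in shoots with ACC and 111.5 times with KMBA, and that of CHIB 224 and 166 times. No ratio of means is given for the PR1-like gene, which was listed at 0 in most shoots. The lectin gene differed between organs with KMBA, by a ratio of means of 2.85, but with ACC its root and shoot libraries overlapped and the ratio was 1.18. In the opposite direction, the mean of PR2 was 70.0 times and that of PR5 41.3 times higher in ACC shoots than in ACC roots.

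Of the 7 genes tested in this fit, PDF1.2a and PDF1.2b being too low, 3 passed as higher in ACC roots than in ACC shoots (the PR1-like gene, HEL and CHIB), where 22.7% of 18357 genes did, and 3 as lower (PR1, PR2 and PR5), where 13.9% did. PR1, PR2 and PR5 met the filter on low values only through the shoots, for PR1 and PR2 those with ACC, and the PR1-like gene only through the roots, so they had to differ and nothing is read from these counts. With KMBA 4 passed as higher in roots than in shoots (the PR1-like gene, HEL, CHIB and the lectin gene), where 24.7% did, and 1 as lower (PR5), where 13.5% did. The call of PR5 was lost without KMBA root replicate 3 or KMBA shoot replicate 3 (-0.92 in each case, against -1.02 with all libraries), and that of the lectin gene (1.33) with median-ratio scaling (0.92) or the length and GC trend subtracted (0.90). The log2 fold changes of HEL were 6.64 (SE 0.15) with ACC and 6.44 (SE 0.15) with KMBA, so the difference between organs was of similar size under both compounds.

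**Figure D4:**
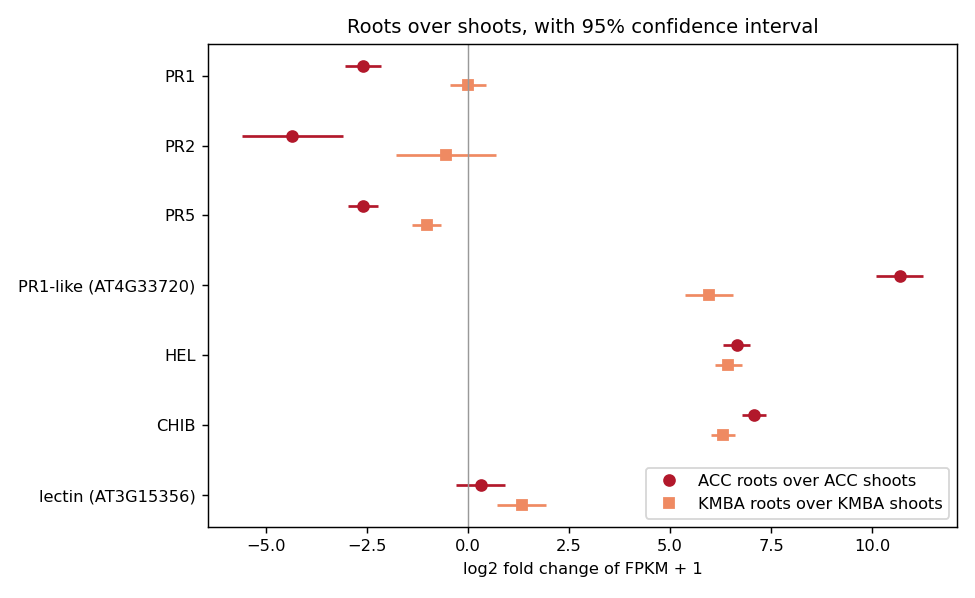
Log2 fold changes of roots over shoots on the log2(FPKM + 1) scale (horizontal axis) for the 7 genes tested, with ACC (circles) and with KMBA (squares), and bars for the 95% confidence interval. HEL lay at 6.64 and 6.44, while PR2 lay at -4.34 with ACC and -0.54 with KMBA. Zeros enter the values of PR1 and of the PR1-like gene, so their size depends on the 1 added to the FPKM.

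Whether the organ difference itself changed with the compound was tested as an interaction (ACC root minus shoot difference less that of KMBA), where passing means an adjusted p under 0.05 alone. Of the 7 genes 5 passed, where 10.3% of genes did: the PR1-like gene at 4.71 (SE 0.38) and CHIB at 0.77 (SE 0.19) on the positive side, and PR1 at -2.60 (SE 0.29), PR2 at -3.79 (SE 0.80) and PR5 at -1.58 (SE 0.24) on the negative side. HEL (0.20, SE 0.22) did not pass, with ACC above KMBA in both organs, and neither did the lectin gene (-1.01, SE 0.39). The call of CHIB was lost without ACC root replicate 3 (0.73) and without KMBA root replicate 1 (0.77), and with a pseudocount of 0.1 (0.52). Without ACC shoot replicate 3, the lowest of the ACC shoots, the lectin gene passed at -1.39. As in the comparison of organs, PR1, PR2, PR5 and the PR1-like gene entered through a single organ, and PR1 was not tested once an ACC shoot library was left out. Zeros enter the value of PR1 and of the PR1-like gene, so their size depends on the pseudocount.

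The genes whose pattern over the 12 shoot libraries was most like that of PR1, among 8729 that averaged 5 FPKM or more in a shoot group, were AT3G01340 (r = 0.953, rho = 0.879), AT2G01100 (r = 0.945, rho = 0.925) and AT1G35430 (r = 0.937, rho = 0.772). All of them varied far less than PR1: AT3G01340, for example, averaged 37.5 FPKM in ACC, 30.5 FPKM in KMBA, 32.1 FPKM in SA187 and 35.1 FPKM in WT shoots. For PDF1.2a they were AT5G61360 (r = 0.839, rho = 0.865), AT1G59910 (r = 0.790, rho = 0.823) and CKL2 (AT1G72710, r = 0.788, rho = 0.581), again with small ranges. These likenesses are descriptions over 12 libraries and the best of many candidates.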

How the data were processed

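PolyA RNA of 18 libraries was sequenced on 1 platform, and per the labels the authors trimmed reads (Trimmomatic 0.36) before TopHat alignment to TAIR10. The deposited table holds FPKM values made by the authors with Cufflinks 2.2.1, 1 per gene and library. Read numbers and the use of strand are not given in the sources used here, so precision rests on the spread between libraries.

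Samples were grouped by label. A gene entered a fit if 3 or more of its libraries reached 1 FPKM. Values on the log2(FPKM + 1) scale, which understates changes of low genes, were tested with limma 3.58.1 in R 4.3.3 (eBayes with a trend, 2-sided, Benjamini-Hochberg adjustment over all tested genes). There were 3 fits, of the 4 shoot groups, of the root groups, and of ACC and KMBA samples from both organs together. The model code was tested on simulated data. Settings changed one at a time were median-ratio scaling, no filter, a pseudocount of 0.1, no trend, a fit of only the 2 groups, pool as a covariate or pool 1 alone, length and GC trends subtracted (lowess span 0.3), a replicate block, and each library left out.

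The 9 genes, the lists of relatives, regulators and markers, and the naming rule were chosen with earlier results of these data known. The rule took all 9 genes, the 3 named copies of PDF1.2a, at most 3 genes by lowest p among those that passed in a list, and the 3 genes most like PR1 and PDF1.2a in shoots. The salicylate regulators in shoots went beyond this limit. All of them that passed against WT are named, chosen after their values were seen. Transcript models and upstream windows of 250 bases came from TAIR10.1, which matched 26703 of 27371 gene IDs. Tables and figures used Python 3.11.15, pandas 2.3.3, matplotlib 3.10.9 and Biopython 1.88.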

Additional observations from a re-analysis of the deposited data

Results flagged for a closer look

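For 5 of the 7 genes tested, the effect of ACC against KMBA differed between roots and shoots by the interaction term of limma, adjusted over all genes, beside 10.3% of all genes tested. The difference, roots minus shoots on the log2(FPKM + 1) scale, was 4.715 (SE 0.38, adjusted p = 4.96e-05) for the PR1-like gene AT4G33720, at 1657 FPKM in ACC roots, against 67.6 FPKM in KMBA roots, and near 0 in both kinds of shoots. It was 0.771 (SE 0.19, adjusted p = 0.0225) for CHIB, a call lost with a pseudocount of 0.1 (adjusted p = 0.255) and without ACC root replicate 3 or KMBA root replicate 1. It was -2.60 (SE 0.29, adjusted p = 0.000354) for PR1, -3.79 (SE 0.80, adjusted p = 0.0116) for PR2 and -1.58 (SE 0.24, adjusted p = 0.0019) for PR5. PR1, PR2 and PR5 were higher with ACC than with KMBA in every shoot library, while in roots PR1 was listed at 0 throughout and PR2 and PR5 lay lower in every ACC library. PR1, PR2 and PR5 met the filter on low values only through the shoots and the PR1-like gene only through the roots, so their values are a description. These genes were picked with such values known, and each root group had a sequencing pool of its own.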

How the results depend on the processing

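In roots all 4 genes passed under every alternative. In shoots the number that passed depended on single libraries. Against WT it was 0 to 2 for SA187, 0 to 4 for KMBA (both highest without WT replicate 2) and 1 to 3 for ACC (highest without WT replicate 3) when each library was left out. For ACC against WT it was 1 with all libraries, 2 with the length and GC trend subtracted, 2 with the replicate block and 5 with WT replicate 2 as the only WT library, an alternative chosen after seeing the data that takes its spread from the other groups and gave 0 for SA187 and for KMBA against WT. For ACC against SA187 it was 2, then 1 with median-ratio scaling, no filter, a pseudocount of 0.1, the pool as a covariate or pool 1 only, 5 with only the 2 groups fitted, and 1 to 2 with each library left out. For ACC against KMBA shoots it was 2, then 1 with no filter or the pool as a covariate, 0 with pool 1 only, 5 with only the 2 groups fitted, and 1 to 1 with each library left out. Roots against shoots gave 5 to 7 with ACC and 4 to 5 with KMBA, and the interaction 4 to 5. No called value reversed. Among the single genes and settings, a call was kept in 809 cases and lost in 174, and a gene not called stayed so in 615 and was called in 26. Same-numbered libraries correlated between -0.17 and 0.34, over 0.1 in 13 of 36 pairs of libraries, and the main fits did not pair them. In every group replicate 3 had the highest sum of senescence markers and the highest value of HEL. Whether the numbers mark shared batches was not tested, and the replicate block moved no other count by over 1.5 times. FPKM carry no read numbers, so the precision of single values is unknown, above all for those under 1 FPKM, which include every value of PDF1.2b.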
